A study of Mus musculus with 21 samples.

Results

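The hnRNP and SR protein families, the pre-mRNA binding proteins that set much of alternative splicing, were measured in spinal cord of mice that lost TDP-43 from oligodendrocytes. Members were all genes named Hnrnp followed by a letter or Srsf followed by a number, pseudogenes left out, that reached 5 normalized scaled reads per base in at least 3 libraries. The rule found 33 identifiers of the 25127 measured. They stand for 31 genes, 20 hnRNP and 11 SR. Hnrnpu and Srsf1 each had 2 identifiers with identical values (within a relative 1e-09), and each gene was counted once.

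hnRNP proteins coat nascent pre-mRNA through RRM or KH domains, and many repress the exons they bind. SR proteins carry an RRM and a serine- and arginine-rich tail, bind exonic enhancers and recruit the spliceosome, and their activity depends on phosphorylation of that tail. The families often act against each other at the same exon. Many members also control their own level through exons whose inclusion or skipping sends the transcript to nonsense-mediated decay. TDP-43, encoded by Tardbp, is itself a protein of the hnRNP type, with paired RRMs that bind UG-rich RNA, and it is known for its loss from the nucleus in amyotrophic lateral sclerosis. In oligodendrocytes hnRNP A2, a product of Hnrnpa2b1, is known for carrying Mbp mRNA into the myelin processes.

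RNA was extracted from spinal cord of 21 C57BL/6 mice, each library with its own mouse number. Control mice (Tardbp-fl/fl) had both Tardbp alleles floxed and no Cre, cHET mice (Cnp-Cre; Tardbp-fl/+) had Cnp-Cre and 1 floxed allele, and cKO mice (Cnp-Cre; Tardbp-fl/fl) had Cnp-Cre and 2 floxed alleles. Cnp-Cre recombines in cells of the oligodendrocyte lineage, and Tardbp was not measured by cell type here. The P21 groups (21 days old) held 4 mice each, 2 female and 2 male. The P60 groups held 3 mice each: females of 74 days as controls, males of 60 to 65 days as cHET, and males of 61 to 64 days as cKO. At P60 a difference from control therefore cannot be told apart from one of sex or age, and the comparison of cKO with cHET, which also share Cre, is the main one here. P21 and P60 libraries were made with different kits and were normalized separately, so that age and kit cannot be told apart.

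Values are the authors' normalized scaled reads per base, already relative to gene length. The sum over all genes was 26908290 to 29206779 per library at P21 and 12488935 to 13798772 at P60. Tardbp, which checks the cKO labels, read 2198, 2283, 2415 and 2155 in control mice at P21, 2068, 2236, 2030.2 and 2231 in cHET and 1731, 1880.5, 1753 and 1639 in cKO, so all cKO libraries lay below all others. Its log2 change of cKO against cHET was -0.29 (SE 0.059, adjusted p = 0.00249) in limma. At P60 it read 828, 884 and 937 in control, 925, 932 and 906 in cHET and 831, 794 and 783 in cKO. That change was -0.20 (SE 0.062, adjusted p = 0.0397) in limma, and the authors' deposited table did not call it (q = 0.0633). Leaving out any of 7 of the 9 P60 libraries (all but control 1 and control 3) ended the call, with adjusted p up to 0.108. One P60 cKO library lay above 1 control library, and against control the change was -0.14 (adjusted p = 0.142). For cHET against control the authors' deposited table gave Tardbp -0.079 (q = 0.962) at P21 and 0.062 (q = 0.99991) at P60. Tardbp therefore does not check the cHET labels. These are gene-level values of whole tissue, which separate neither the floxed part of the gene nor oligodendrocytes from other cells. P60 control 1 and cHET 3 stood apart from the other P60 libraries on the second principal component (10.6% of variance), as P21 cHET 4 and cKO 4 did at P21 (11.0%), and results that change without them are given both ways.

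Since TDP-43 binds UG repeats, the runs of TG in each member's longest coding transcript (GENCODE M21, GRCm38, sense strand only) are shown for the 3 members with the longest runs, to set beside the longest run of Hnrnpf, Hnrnpul1 and Srsf12, whose calls are described first among the results. In each window of at most 30 bases, cut at its 3′ end where the run is longer, capitals mark the run.
Hnrnpd, chr5:99958282-99958311, minus strand, 3′ UTR: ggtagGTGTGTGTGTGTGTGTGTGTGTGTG
Hnrnph2, chrX:134603311-134603340, plus strand, 5′ UTR: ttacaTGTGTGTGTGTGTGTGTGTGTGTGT
Hnrnpr, chr4:136351603-136351632, plus strand, 3′ UTR: cgctcTGTGTGTGTGTGTGTGTGTGTGTtt
Hnrnpf, chr6:117923724-117923739, plus strand, 5′ UTR: aagctTGTGTGacatc
Hnrnpul1, chr7:25745100-25745117, minus strand, coding: agggcGTGTGTGTtttga
Srsf12, chr4:33231486-33231503, plus strand, 3′ UTR: ctcacTGTGTGTGcaatg
The run measured 43 bases in Hnrnpd, 37 in Hnrnph2 and 23 in Hnrnpr, against 6 in Hnrnpf, 8 in Hnrnpul1 and 8 in Srsf12. Of the other members with the same values in both kinds of table that passed in cKO against cHET, Hnrnpa0 and Srsf6 held 2 runs each, of at most 7 and 6 bases, and Srsf9 held none. TGTGTG occurred in the longest transcript of 26 of 31 members (83.9%), against 68.0% of 21866 protein-coding genes, with median transcript lengths of 2847 and 2683 bases. TGTGTGTGTG, which contains the shorter motif, occurred in 3 of 31 (9.68%) against 9.43%. A match is a description of the letters and says nothing about binding. Introns, which these spliced transcripts leave out, were not searched. A short run or none therefore does not show that a member lacks UG repeats.

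Levels in control tissue spanned a wide range and kept much of their order between the ages. The order is given for the 27 members whose values were the same in both kinds of deposited table, with the other 4 described separately. Hnrnpa2b1 was the highest at P21, at 17356 ± 1165 (SD, n = 4.0), without overlap with the next. Hnrnpul2, a relative of the nuclear scaffold protein hnRNP U, followed at 8956 ± 271 (SD, n = 4.0), then Hnrnpl, which binds CA repeats, at 8513 ± 506 (SD, n = 4.0) and Srsf5 (SRp40) at 8312 ± 627 (SD, n = 4.0). These neighbours overlapped with each other. The lowest were Srsf9 at 1132 ± 38.8 (SD, n = 4.0), Hnrnph3 at 1119.6 ± 64.2 (SD, n = 4.0) and Srsf12 at 783 ± 26.3 (SD, n = 4.0). Only 8 of the members lay above the next in the order without overlap.

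At P60 the same 4 members led, with Hnrnpa2b1 at 5359 ± 453 (SD, n = 3.0), and Srsf12 was again the lowest, at 259.6 ± 18.0 (SD, n = 3.0). Spearman's rho of the control means between the ages was 0.89 over 27 members, a description in which age and kit are shared by all points. Hnrnpa2b1 made up 14.2% to 16.0% of the summed level of the 27 members in single P21 libraries and 11.5% to 13.7% at P60. The members were steady between mice of a group: their median coefficient of variation was 5.82% in P21 controls, and the medians of the other groups lay between 3.95% and 6.93%. The highest value was 24.3%, for Srsf10 in P60 controls.

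In whole cord, 16.1% of members at P21 and 20% at P60 passed in cKO against cHET, beside 22.6% and 25.0% of all genes tested. Each change that passed was smaller than 0.5 on the log2 scale. The values do not separate the oligodendrocyte lineage, where Cre acts, from other cells. Tardbp itself had changes of -0.29 at P21 and -0.20 at P60. The size of any change within oligodendrocytes was not measured. Hnrnpf, which binds runs of G, rose in cKO at both ages, by 1.26-fold and 1.32-fold against cHET, and Hnrnpul1, an hnRNP U relative, rose by 1.17-fold at P21. Srsf12, an SR-like protein known to antagonize SR proteins, fell at both ages, to 0.778 and 0.736 of its cHET level. At P21, 5 of 31 members passed in cKO against cHET (limma, adjusted p under 0.05), 4 higher and 1 lower, beside 22.6% of all genes tested (12.6% higher, 9.97% lower). At P60, 6 of 30 passed, 4 higher and 2 lower, beside 25.0% (13.4% higher, 11.5% lower). Among the 27 members with the same values in both kinds of table, 4 and 5 passed. The authors' deposited table called 5 of 31 members at each age, 4 higher and 1 lower, beside 23.8% and 25.7% of its genes. Counted over both directions, none of these shares of members stood above that of all genes. In bulk tissue, fewer cells of a type and less RNA per cell cannot be told apart.

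The changes were narrow around 0. None of the 27 members moved by more than 0.5 on the log2 scale in either direction at either age, against 19.5% of all genes at P21 and 24.0% at P60. The 95% interval of the change lay within 0.5 of 0 for 26 of 27 members at P21 and for 22 of 27 at P60. The median size of change was 0.078 at P21, against 0.19 over all genes tested, and 0.12 against 0.22 at P60. The members are also more abundant than most genes: their median level over all P21 libraries was 3322, against 415 for all genes tested, and the part of level in the size of change was not tested. Estimates were positive for 15 of 27 members at P21 and for 21 of 27 at P60, beside 48.8% and 50.4% of all genes. Groups did not overlap for 3 of 31 members at P21 and 14 of 30 at P60, beside 22.6% and 39.5% of all genes.

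**Figure D1:**
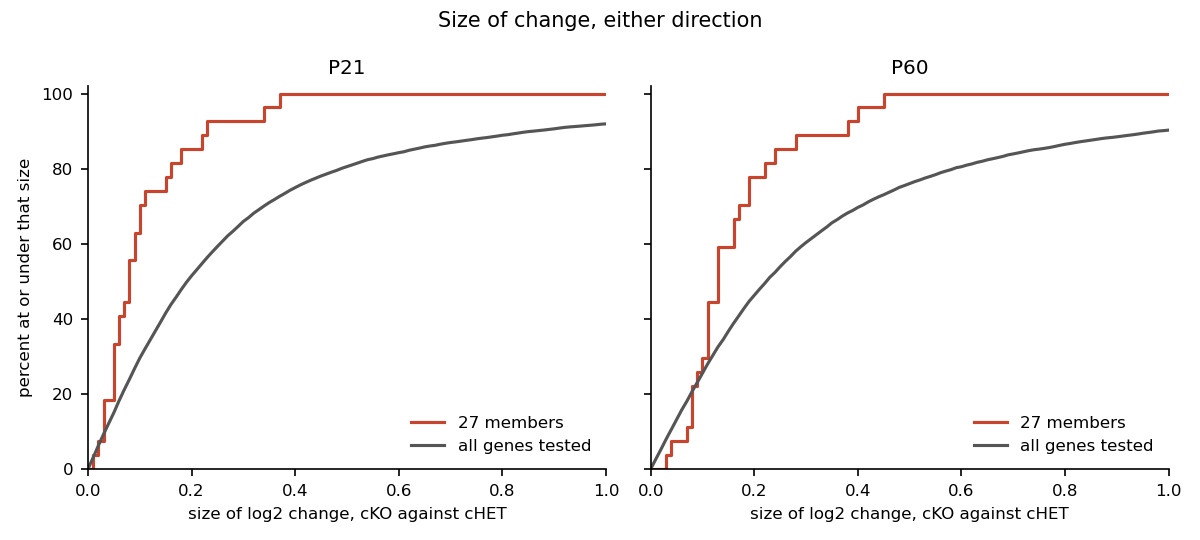
Share of genes (percent, vertical axis) whose log2 change of cKO against cHET, in either direction, was at or under the size on the horizontal axis, for the 27 members (red steps) and for all genes tested (grey line), at P21 (left) and P60 (right). The red line reaches all 27 members before a size of 0.5, where 19.5% (P21) and 24.0% (P60) of all genes still lie beyond.

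**Figure D2:**
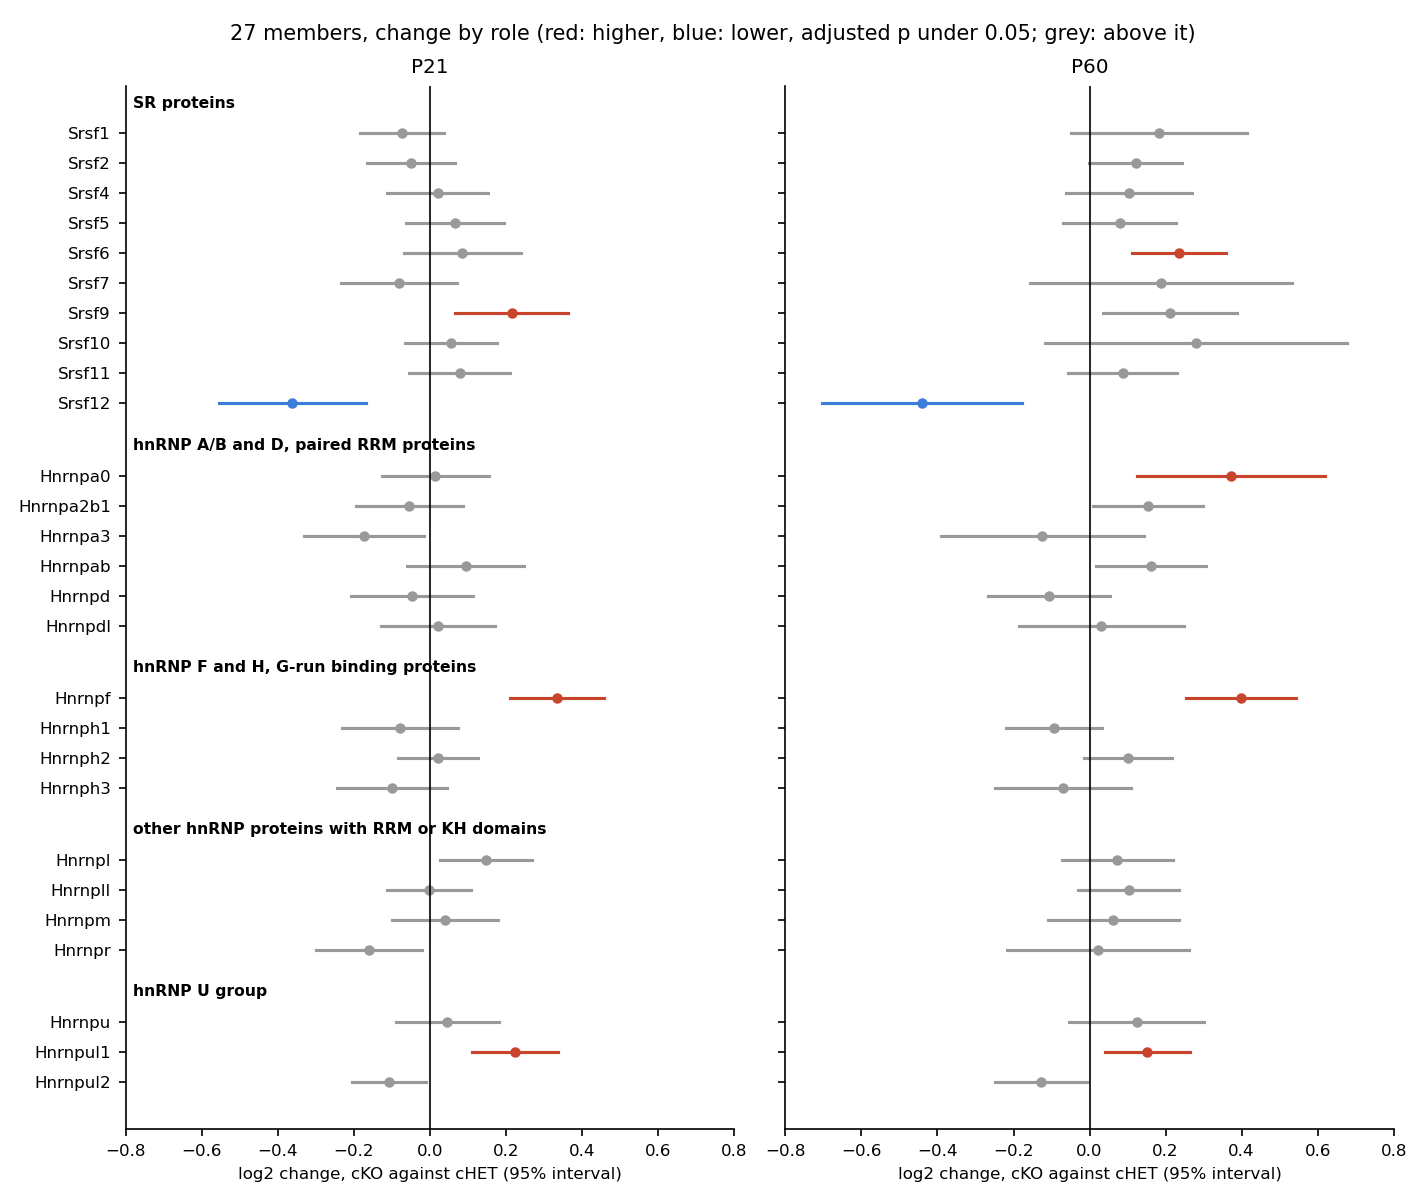
Log2 change of cKO against cHET (point) with its 95% interval (line) for the 27 members with the same values in both kinds of table, grouped by role, at P21 (left) and P60 (right). Red and blue mark members higher or lower with adjusted p under 0.05, and Hnrnpf, Hnrnpul1 and Srsf12 are coloured at both ages.

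Among the G-run binding proteins, Hnrnpf was the 1 member that passed against cHET. Hnrnpf (ENSMUSG00000042079, chr6:117900324-117925622, plus strand) read 3546, 3680.0, 3256 and 3397 in P21 control, 3339, 3404, 3293 and 3527 in cHET and 4344, 4243, 4627 and 3915 in cKO. All 4 cKO libraries lay above all 8 others, and the change against cHET was 0.33 (SE 0.058, adjusted p = 0.000696). At P60 it read 1274, 1353 and 1441 in control, 1487, 1476 and 1337 in cHET and 1900.1, 1922 and 1838 in cKO, again without overlap. That change was 0.40 (SE 0.065, adjusted p = 0.00104), and it passed under each of 24 alternatives at P21 and 20 at P60. Its close relatives did not pass against cHET: Hnrnph1 had estimates of -0.078 and -0.093, Hnrnph2 had 0.022 and 0.10, and Hnrnph3 -0.10 and -0.070. Their 95% intervals at both ages lay between -0.25 (Hnrnph3, P60) and 0.22 (Hnrnph2, P60). Hnrnph2, with its long TG run, read 2042, 2129.8 and 2194 in P60 cHET and 2335, 2207 and 2287 in cKO, which do not overlap, at an adjusted p of 0.197.

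In the hnRNP U group, Hnrnpul1 (ENSMUSG00000040725, chr7:25721165-25754757, minus strand) read 3083, 3269, 3124 and 3032 in P21 control, 3159.5, 3231, 3021 and 3169 in cHET and 3467, 3982, 3743 and 3519 in cKO. The cKO libraries lay above all others, with a change of 0.22 (SE 0.053, adjusted p = 0.00679) that passed under each of 24 alternatives. At P60 the values were 1492, 1432 and 1464 in control, 1662, 1583 and 1637 in cHET and 1770.0, 1817 and 1837 in cKO. These 3 groups did not overlap, the cHET libraries lying between the others. The P60 change against cHET was 0.15 (SE 0.051, adjusted p = 0.0496), next to the threshold, and it ended under 13 of 20 alternatives, among them leaving out any single P60 library (adjusted p up to 0.159) and the q in the authors' deposited table (0.0734). Hnrnpu, the scaffold protein that gives the group its name, had estimates of 0.046 (adjusted p = 0.667) and 0.12 (adjusted p = 0.311). Hnrnpul2, the most abundant of the 3, had estimates of -0.11 (adjusted p = 0.116) and -0.13 (adjusted p = 0.123). It read 4792, 4597 and 4563 in P60 cHET and 4092, 4321 and 4365 in P60 cKO, which do not overlap.

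Of the A/B and D proteins, whose paired RRMs resemble those of TDP-43, 1 of the 6 with the same values in both tables passed against cHET, at P60. Hnrnpa0 (ENSMUSG00000007836, chr13:58125879-58128556, minus strand), a protein that binds AU-rich mRNA, read 1280.5, 998 and 1114 in control, 1017, 959 and 1251 in cHET and 1336, 1488 and 1331 in cKO at P60. The cKO libraries lay above all others, and control 1 and cHET 3, the libraries that stood apart, were the nearest to them. The change against cHET was 0.37 (SE 0.11, adjusted p = 0.0328), and it was 0.49 (adjusted p = 0.00216) without those 2 libraries. It ended under 6 of 20 alternatives, with no filter on low values or without cHET 1, cHET 2 or any 1 of the cKO libraries (adjusted p up to 0.121). At P21 its values overlapped, 5594, 5355, 5547 and 6238 in cHET and 5270.1, 5575, 5876 and 6262 in cKO, with an estimate of 0.015 (adjusted p = 0.906).

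Hnrnpa2b1, the carrier of Mbp mRNA, read 15697, 17415, 18023 and 18289 in P21 control, 16364, 17222, 16858 and 19364 in cHET and 15926, 16416, 18047 and 16799.7 in cKO. All 3 groups overlapped, with an estimate against cHET of -0.054 (adjusted p = 0.625). At P60 the values were 5819, 4914 and 5345 in control, 5731, 5828 and 6124 in cHET and 6629.7, 6646 and 6383 in cKO. The cKO libraries lay above all others, with 0.15 (adjusted p = 0.120) against cHET, and 0.18 (adjusted p = 0.0447) without control 1 and cHET 3. Hnrnpa3, which takes part in mRNA transport, had -0.17 (adjusted p = 0.115) and -0.12 (adjusted p = 0.512). Hnrnpab had 0.095 (adjusted p = 0.400) and 0.16 (adjusted p = 0.100). Hnrnpd, the AU-rich element binding protein AUF1 whose transcript carries the longest TG run, had -0.047 (adjusted p = 0.720) and -0.11 (adjusted p = 0.330), and its paralog Hnrnpdl had 0.022 (adjusted p = 0.868) and 0.031 (adjusted p = 0.856).

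None of the 4 other hnRNP genes with the same values in both tables passed against cHET at either age. Hnrnpl was the nearest, with 0.15 (adjusted p = 0.0788) at P21, where it read 8747, 8687, 8434 and 9105 in cHET and 9979, 9442, 9013 and 10329.6 in cKO. Only cHET 4 lay inside the cKO range, and at P60 the estimate was 0.073 (adjusted p = 0.476). Hnrnpll, a paralog of hnRNP L known from T-cell splicing, had -0.0025 and 0.10. Hnrnpm had 0.041 and 0.062. Hnrnpr, which binds actin mRNA in motor axons and whose transcript holds 13 TG runs, had -0.16 (adjusted p = 0.0967) and 0.023 (adjusted p = 0.910).

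Of the SR genes, Srsf12 fell at both ages. Srsf12 (ENSMUSG00000054679, chr4:33208991-33233340, plus strand) read 814, 796, 766 and 757 in P21 control, 727, 736, 803 and 873 in cHET and 582, 598, 731 and 540.2 in cKO. The cKO libraries lay below all others but for cKO 3, which lay just above cHET 1. The change against cHET was -0.36 (SE 0.090, adjusted p = 0.00953), and -0.25 (adjusted p = 0.0568) without cHET 4 and cKO 4, the highest cHET and the lowest cKO library. At P60 it read 275, 264 and 239.9 in control, 248, 229 and 281 in cHET and 175, 167 and 217 in cKO, without overlap. That change was -0.44 (SE 0.12, adjusted p = 0.0197). It ended without cHET 3, cKO 1 or cKO 2 (adjusted p up to 0.0778), and was -0.36 (adjusted p = 0.0726) without control 1 and cHET 3.

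Srsf9 (SRp30c; ENSMUSG00000029538, chr5:115327177-115333080, plus strand) read 1138, 1155, 1076 and 1161 in P21 control, 1165, 1095, 1125 and 1318 in cHET and 1279.9, 1309, 1379 and 1492 in cKO. Only cHET 4 reached into the cKO range. The change was 0.22 (SE 0.069, adjusted p = 0.0371), which ended in a fit of only these groups and without cHET 1, 2 or 3 or cKO 2, 3 or 4 (adjusted p up to 0.110). At P60 the values were 332, 361 and 352 in cHET and 432, 394 and 384 in cKO, which do not overlap, with an estimate of the same size, 0.21 (SE 0.080, adjusted p = 0.0799). Srsf6 (SRp55; ENSMUSG00000016921, chr2:162931528-162937121, plus strand) read 1669, 1774 and 1724 in P60 control, 1817, 1902 and 1818 in cHET and 2172, 2275 and 2075 in cKO. The cKO libraries lay above all others, and the change of 0.24 (SE 0.056, adjusted p = 0.00978) passed under each of 20 alternatives. At P21 Srsf6 overlapped, 5669.8, 5746, 5606 and 6392 in cHET and 5466, 6323, 6729 and 6369 in cKO, with an estimate of 0.086 (adjusted p = 0.454).

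The other 7 SR genes with the same values in both tables did not pass against cHET at either age. At P21 their estimates ran from -0.081 (Srsf7, a shuttling SR protein also known as 9G8) to 0.079 (Srsf11). At P60 all 7 estimates were positive, from 0.079 (Srsf5) to 0.28 (Srsf10, a repressor when dephosphorylated). Srsf5, the most abundant SR gene, read 8539.7, 8887, 8549 and 9245 in P21 cHET and 9407, 9360.0, 8519 and 9589 in P21 cKO. Its P60 values were 3541, 3385 and 3023 in cHET and 3318, 3622 and 3554 in cKO, and the groups overlapped at both ages. Srsf7 and Srsf10 were the least precise at P60. Srsf7 read 868, 616 and 814 in control, 669, 672 and 989 in cHET and 869.8, 867 and 872 in cKO, and its 95% interval against cHET ran from -0.16 to 0.53. Without control 1 and cHET 3 that change was 0.37 (adjusted p = 0.0324).

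**Figure D3:**
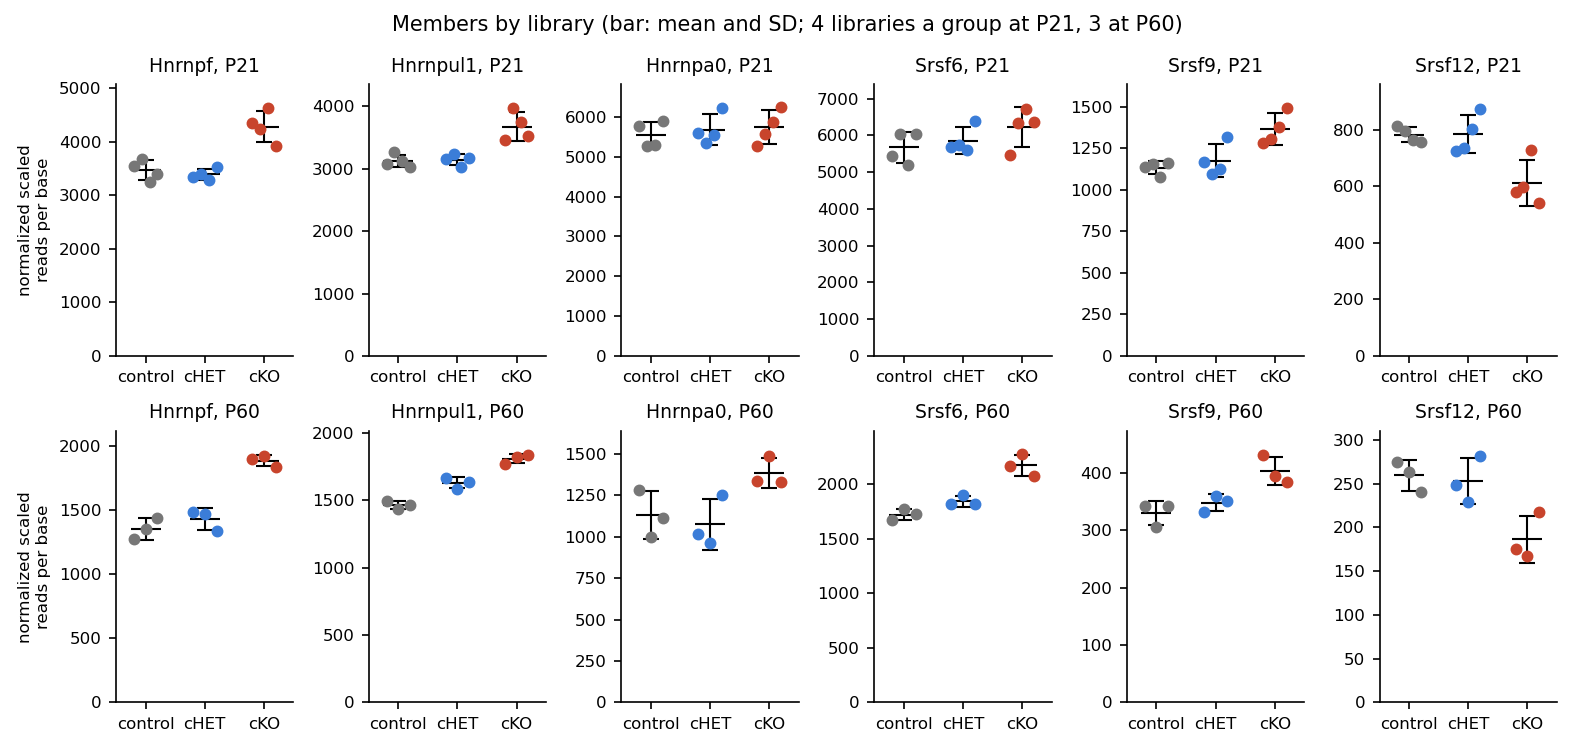
Normalized scaled reads per base (vertical axes from 0, each with its own scale) of Hnrnpf, Hnrnpul1, Hnrnpa0, Srsf6, Srsf9 and Srsf12 in each library (points) of control, cHET and cKO mice, with the mean and SD of 4 libraries a group at P21 (top) and 3 at P60 (bottom). Hnrnpf lies higher and Srsf12 lower in cKO at both ages, and the cKO points of Hnrnpa0 and Srsf6 lie above all others at P60.

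Against control, 5 of 31 members passed at P21 (limma), 4 higher and 1 lower, beside 26.9% of all genes (14.6% higher, 12.3% lower). Hnrnpf (0.30 (adjusted p = 0.00134)), Hnrnpul1 (0.23 (adjusted p = 0.00464)), Srsf9 (0.27 (adjusted p = 0.0104)) and Hnrnpl (0.19 (adjusted p = 0.0238)) rose, and Srsf12 fell (-0.36 (adjusted p = 0.00825)). The Hnrnpl call ended without control 1, control 3, cKO 1 or cKO 4. With median-of-ratios scaling the split was 4 higher and 3 lower, beside 14.5% and 12.8% of all genes. At P60, 10 of 30 passed, 9 higher and 1 lower, beside 25.9% (14.5% higher, 11.4% lower). Those that rose were Hnrnpf (0.48), Srsf6 (0.34), Hnrnpul1 (0.31), Srsf11 (0.30), Hnrnpa2b1 (0.29), Srsf9 (0.29), Hnrnph2 (0.28), Hnrnpab (0.26) and Srsf2 (0.24). Srsf12 fell by 0.48. Leaving out cKO 2 ended the calls of Hnrnpab and Srsf12, and leaving out cKO 1 or control 2 ended that of Srsf9. Without control 1 and cHET 3, 14 members passed, 12 higher and 2 lower, beside 14.3% of all genes higher and 11.3% lower in that fit. The controls of this age differ from cKO in sex and age, and both comparisons of cKO share the same cKO libraries.

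With 1 floxed allele, no member passed against control at either age in limma, beside 0.0111% of all genes at P21 and 0.0178% at P60. At an unadjusted p under 0.05 there were 1 of 31 and 5 of 30 members, beside 7.14% and 5.42% of all genes. The authors' deposited table called 0 at both ages, beside 0.193% and 0.0827% of its genes. Srsf1, the founding SR protein, was the 1 at P21, with 1723, 1710.4, 1722 and 1779.5 in control and 1821, 1913, 1990.3 and 1988 in cHET. Its groups did not overlap, at an estimate of 0.15 (adjusted p = 0.551). At P60 the 5 were Hnrnpa1, Hnrnpa3, Hnrnph2, Hnrnpul1 and Srsf11, all with positive estimates from 0.15 (Hnrnpul1) to 0.27 (Hnrnpa3), in the comparison in which sex and age differ between the groups.

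The change of cKO against cHET did not differ between the ages for any of 30 members in limma, beside 3.2% of all genes, with 5 at an unadjusted p under 0.05, beside 15% of all genes (2483 of 16570). For Hnrnpf the difference between ages was 0.063 (adjusted p = 0.826) with a 95% interval of -0.12 to 0.24, and for Srsf12 -0.080 (adjusted p = 0.881) with an interval of -0.39 to 0.23. Hnrnpa0 had the largest positive difference, 0.36 (adjusted p = 0.164). It was 0.47 (adjusted p = 0.0290) without P60 cHET 3 and 0.47 (adjusted p = 0.0134) without P60 control 1 as well. With array weights and all libraries kept it was 0.41 (adjusted p = 0.0454). In the fit without both libraries 3 members passed, beside 4.75% of all genes, the other two being Srsf7 at 0.46 (adjusted p = 0.0484) and Hnrnpc at -0.55 (adjusted p = 0.0474). A missed threshold does not show that the ages respond alike.

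For 4 members the per-library table and the authors' deposited table of comparisons held different levels. Against cHET, the sign of the change turned with the table for Hnrnpa1 at both ages and for Hnrnpc and Srsf3 at P21, and not for Hnrnpk. The level of Hnrnpa1, the classic repressor of the A/B group, was 5.11 times as high in the authors' deposited table as in the per-library table at P21 and 3.30 times at P60. For Hnrnpc, which binds U runs, it was 4.56 and 4.44 times as high there, and for Hnrnpk, a KH protein that binds C-rich RNA, 0.771 and 0.775 times. Srsf3, the smallest SR protein, read 0 in all P60 libraries and at most 120.5 at P21, where the authors' deposited table held 4394. It was tested at P21 only, where its 95% interval ran from -4.38 to 2.80, and it was chosen for mention after its values were seen. Both kinds of value are normalized gene levels, and which transcripts each of them sums is not given in the sources used here.

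In the per-library values Hnrnpa1 read 1464, 1217 and 1267 in P60 cHET and 898, 1114 and 912 in P60 cKO, all cKO below all cHET. Its change in limma was -0.44 (SE 0.093, adjusted p = 0.00543), whereas the authors' deposited table gave 0.24 (q = 0.0360). At P21 the values were 1207, 1565, 1444 and 1446 in cHET and 1140.1, 1286, 1261 and 823 in cKO, with -0.34 (adjusted p = 0.0611) in limma, against 0.20 (q = 0.0177) in the authors' deposited table. Hnrnpa1 thus passed as lower in one table and as higher in the other at P60. Hnrnpc read 969, 1166, 864 and 1247 in P21 cHET and 1451, 1259.6, 1432 and 1454 in P21 cKO, without overlap and with 0.41 (SE 0.10, adjusted p = 0.00910) in limma, against -0.082 (q = 0.613) in the authors' deposited table. At P60 it had -0.11 (adjusted p = 0.683), against -0.0092 (q = 0.946) in the authors' deposited table. Hnrnpk had -0.020 (adjusted p = 0.814) and 0.11 (adjusted p = 0.265), against -0.14 (q = 0.195) and 0.16 (q = 0.221) in the authors' deposited table. For Srsf3 the authors' deposited table gave 0.042 (q = 0.799) and 0.22 (q = 0.393). No direction is drawn for these 4.

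**Figure D4:**
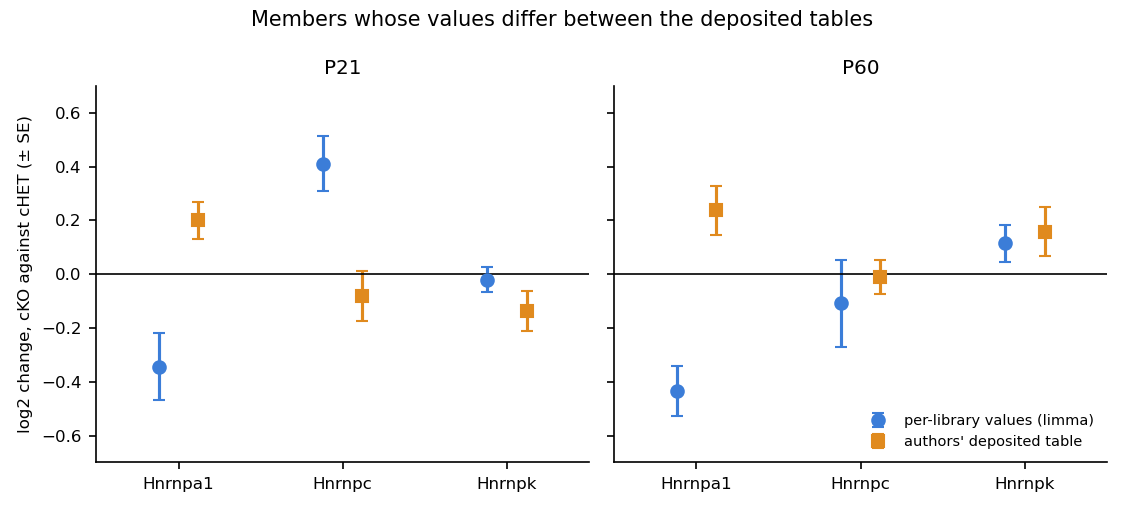
Log2 change of cKO against cHET (vertical axis, with SE) of Hnrnpa1, Hnrnpc and Hnrnpk from the per-library values (blue circles, limma) and from the authors' deposited table (orange squares), at P21 (left) and P60 (right). The 2 sources give Hnrnpa1 opposite signs at both ages.

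Summed over the 27 members, the level at P21 was 112013 ± 3705 (SD, n = 4) in control, 114299 ± 4681 (SD, n = 4) in cHET and 115795 ± 2642 (SD, n = 4) in cKO, and the 3 groups overlapped. At P60 it was 43489 ± 826 (SD, n = 3) in control, 46384 ± 861 (SD, n = 3) in cHET and 49087 ± 914 (SD, n = 3) in cKO. The P60 groups did not overlap: the cHET libraries reached at most 47152 and the cKO libraries at least 48366. This sum is weighted towards abundant members and is given without a test. The sum over all genes also varied at P60, from 12488935 to 13798772 per library, and the family sum was not set against it. The P60 controls differed from cHET and cKO in sex and age.

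**Figure D5:**
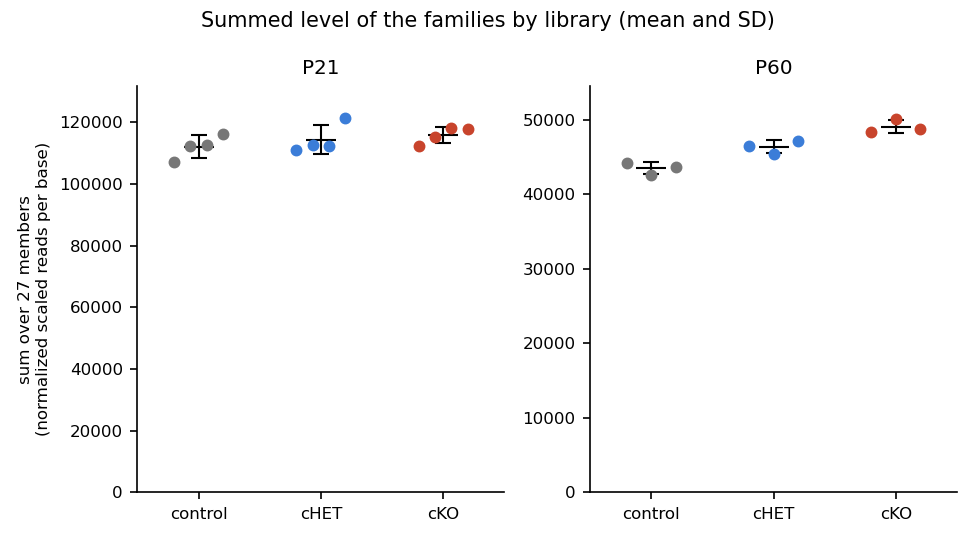
Summed level of the 27 members (normalized scaled reads per base, vertical axes from 0) in each library (points) of control, cHET and cKO mice, with mean and SD, at P21 (left) and P60 (right). The groups overlap at P21 and are apart at P60, with cKO the highest. The P60 controls differ from cHET and cKO in sex and age.

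Members share an annotation feature that the selection did not use. In GENCODE M21, 19 of 31 members (61.3%) have a transcript marked for nonsense-mediated decay, against 20.8% of 21951 protein-coding genes, and 22 of 31 (71.0%) have one with a retained intron, against 41.5%. Well-studied genes have more annotated transcripts, and the part of this in the shares was not tested. Values per gene cannot show a shift between such transcripts and the coding ones, so splicing of the members themselves was not measured here.

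Other splicing genes were counted from lists chosen, like the members, with earlier results known, beside the same 22.6% and 25.0% of all genes. Of 12 listed genes, kinases of SR proteins and nuclear importers, 0 rose and 1 fell at P21, and 1 rose and 2 fell at P60. The kinase Srpk2 had -0.18 (adjusted p = 0.0347) and -0.17 (adjusted p = 0.0495), and the kinase Srpk3 0.44 (adjusted p = 0.0118) at P60. The nuclear importer Tnpo2, whose cargo was not examined here, had -0.43 (adjusted p = 0.00479) at P60. The list's median was 0.061 at P21 and 0.042 at P60. Of 19 SR-related factors, 1 rose and 1 fell at P21, Srek1 (0.25 (adjusted p = 0.0167)) and Srrm3 (-0.32 (adjusted p = 0.0154)), and 1 fell at P60, again Srrm3 (-0.33 (adjusted p = 0.0176)). Of 41 core spliceosome genes, 2 rose and 1 fell at P21 and 3 rose and 2 fell at P60. At P60 the largest rise among them was that of Snrpe, an Sm ring protein, at 0.53 (adjusted p = 0.00124), and the largest fall that of U2af1, which reads the 3′ splice site, at -0.35 (adjusted p = 0.00180). Calls of Srpk2 (both ages), Srek1 and Srrm3 ended when single libraries were left out.

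Of 24 hnRNP-related genes with other names, 3 rose and 2 fell at P21, and 4 rose and 3 fell at P60. Ptbp1, the polypyrimidine tract binding protein that neurons switch off, had 0.56 (adjusted p = 4.16e-05) and 0.52 (adjusted p = 0.0220), and its paralog Ptbp3 had 0.65 (adjusted p = 0.00379) and 0.79 (adjusted p = 0.00137). Rbm3, a cold-inducible protein, had 0.59 (adjusted p = 0.0124) and 0.73 (adjusted p = 0.000249). Ralyl, expressed mainly in neurons, fell (-0.33 (adjusted p = 0.00578) and -0.39 (adjusted p = 0.0198)), as did Tardbp itself, and at P60 the neuronal paralog Ptbp2 (-0.23 (adjusted p = 0.0376)). At P60 the Ptbp1 call ended without cHET 2, cKO 1 or cKO 2, and the Ralyl call without cHET 1 or cKO 2. The P60 calls of Ptbp2 and Tardbp ended without any 1 of 6 and of 7 libraries. Of 29 tissue-restricted regulators, 2 rose and 8 fell at P21, and 1 rose and 13 fell at P60. Rbm47 rose the most in that list, by 1.91 (adjusted p = 0.000273) and 2.17 (adjusted p = 0.000837), and the neuronal Elavl3 (-0.32 (adjusted p = 0.000230) and -0.44 (adjusted p = 0.000154)) and Celf5 (-0.38 (adjusted p = 0.00175) and -0.60 (adjusted p = 0.00104)) fell. The median of this list was -0.14 at P21 and -0.27 at P60, beside -0.0076 and 0.0033 over all genes.

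Levels of cell type markers moved in the same libraries. Of 14 microglia markers, 12 rose and 1 (P21) or 2 (P60) fell in cKO against cHET, and their summed level ran 14249.5 to 16246 in control, 14766 to 17254 in cHET and 58833 to 79906 in cKO at P21. At P60 it ran 6722 to 7841 in control, 7617 to 8123 in cHET and 27640.1 to 36906 in cKO. Of 13 neuron markers, 10 fell at P21 and 5 at P60, with sums of 367020.0 to 451009 in control, 376507 to 409250.0 in cHET and 312871 to 357897 in cKO at P21 and 191701 to 205955 in control, 194054 to 207236 in cHET and 178535 to 207736 in cKO at P60. Mature oligodendrocyte markers fell, 10 of 14 at P21 and 12 at P60, with 2 rising, and precursor markers rose, 4 and 7 of 8. Astrocyte markers rose, 7 and 5 of 10, as did proliferation genes, 8 of 12 and 7 of 11. No peripheral leukocyte or erythrocyte marker passed, and Ly6g was at 0 in all libraries of 2 P21 groups and 2 P60 groups. No listed marker of the nervous tissue types was at 0 in any group. The part of these shifts in the changes of Hnrnpf, Srsf12 and the other members was not tested.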

How the data were processed

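Spinal cord RNA of 21 mice was compared in 6 groups of age and genotype. The deposited per-library signal holds the authors' normalized scaled reads per base, per the file headers. Per the submitters' processing notes the tools were kallisto 0.43.0 and sleuth 0.28.1 on GRCm38, whose roles are not stated. Each comparison table gives the authors' effect per gene in natural log units, per the file headers, here divided by the natural log of 2. The p-value and q-value per gene were used as the authors deposited them. Depth in reads is unknown, since the values are normalized.

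Values were taken to log2(value + 0.5), without rescaling. Genes at 5 or more in 4 libraries (P21) or 3 (P60) were fitted with limma-trend 3.58.1 in R 4.3.3, the 3 genotypes of an age together. Moderated tests were 2-sided, and p-values were adjusted over all genes tested by Benjamini and Hochberg, with a threshold of 0.05. The age difference is the interaction in a fit of all 6 groups. Every adjusted p is limma's unless named as q. Fold changes are on the log2(value + 0.5) scale.

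The members, role groups and 14 gene lists were chosen with earlier results of these data known. Members named with all values were those past the threshold in cKO against cHET or the age difference and the most abundant of each role group. Of each splicing list, up to 3 genes per direction with the smallest p could be named. Alternatives were other pseudocounts (5 and 0.05), filters, scalings, array weights, fits and covariates, the authors' test, and each library left out. Removal of pairs of libraries, of identical rows, and of members that differ between tables was chosen after seeing the data. Positions and transcript types are from GENCODE M21.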

Additional observations from a re-analysis of the deposited data

Results flagged for a closer look

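Of 81 groups of 4 libraries compared (27 members, 3 genotypes at P21), 5 had a single library whose gap to the others was over 0.829 of the group's whole range, and chance alone gives about 1 in 20. Hnrnpa3 read 3334 in P21 cHET 1, against 3487 to 3514 in the other cHET libraries. Hnrnpab read 4457 in P21 cKO 1, against 5298 to 5408 in the other cKO libraries, and Hnrnpd read 2111 in the same library, against 1769 to 1793. Hnrnph1 read 3032 in P21 cKO 2, against 3328 to 3380.3. Srsf7 read 3506 in P21 cHET 4, against 2859 to 2957. None of these 5 genes passed in cKO against cHET at P21.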

How the results depend on the processing

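No paired analysis was possible because the labels carry mouse numbers and the groups share no replicate numbers. With single libraries left out, members passing in cKO against cHET at P21 ranged from 4 to 8. The 8 came without cKO 3, 4 of them lower, beside 21.4% of all genes. In cKO against control at P21 the range was 4 to 9 (9 without cKO 3, beside 25.2%). In cKO against cHET at P60 it was 3 to 5 (3 without cKO 2, beside 19.2%). In cKO against control at P60 it was 9 to 12. The 9 came without cKO 1, cKO 2 or control 2, beside 20.3%, 20.1% and 20.6% of all genes. The 12 came without control 1 or cHET 3, beside 23.2% and 26.9%. For the age difference the range was 0 to 1. The 1 was Hnrnpc (-0.52, adjusted p = 0.0482) without P60 control 1, beside 3.27% of all genes, and Hnrnpa0 without P60 cHET 3, beside 4.20%. The age difference had 1 member (Hnrnpa0) with array weights, beside 4.51% of all genes, and 3 without P60 control 1 and cHET 3, beside 4.75%. No member passed in cHET against control under any alternative run. Of 170 alternative counts, 163 stayed within 1.5 times the reported count, with 0 against 0 also taken as staying. That figure compares how many members passed, not which ones. With the authors' deposited table the sign of 4 changes turned: Hnrnpa1 at P21 (0.20, q = 0.0177) and P60 (0.24, q = 0.0360), Hnrnpc at P21 (-0.082, q = 0.613) and Srsf3 at P21 (0.042, q = 0.799), where the levels in the tables differ.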

Other observations

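In the per-library table, 1343 identifiers with a value above 0 had the same values in all libraries as another identifier. Among the members these were Hnrnpu and Srsf1, whose second identifiers are not in GENCODE M21. With 1 row kept of each identical set, the counts of members passing were the same in each comparison. The deposited tables of comparisons and of libraries also held different levels (beyond a relative 1e-06) for 4 members. Over all genes, levels differed for 901 at P21 and 871 at P60. Of the 18101 P21 and 16928 P60 genes in the comparisons, 717 and 689 had no per-library values and could not be compared.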
